A study of Rattus norvegicus with 7 samples.

Results

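Sertoli cells are the somatic nurse cells of the seminiferous tubule. They take their orders from follicle-stimulating hormone, which acts through a receptor coupled to cAMP, and from androgens made by the neighbouring Leydig cells, and they answer the pituitary with inhibin. They also build the blood-testis barrier and secrete binding and carrier proteins into the tubule, and cadmium is a known toxicant of that barrier and of the testicular vessels. The genes described here are 9 genes of Sertoli cell function and hormone action, namely the hormone subunit Inha, the secreted proteins Clu, Tf and Shbg, the transcription factors Wt1, Sox9, Gata4 and Rhox5, and the hormone receptor Fshr. They were chosen by name, and every probe set that the platform annotation assigns to 1 of them alone was taken. That gave 9 probe sets of 6 genes among 31042 probe sets: 1 each for Inha, Rhox5 and Shbg and 2 each for Clu, Wt1 and Gata4. Sox9 and Fshr have no such probe set in the annotation used here, and Tf stands only beside another gene. These 3 genes were therefore not analysed as members, and the probe sets that Tf shares are described near the end.

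The samples were whole testes of adult male Sprague-Dawley rats, an outbred stock. Untreated rats (n = 3, time 0 h) were compared with rats that had received cadmium chloride, a soluble cadmium salt, as 1 injection of 3 mg/kg into the peritoneum, 8 h (n = 2) or 20 h (n = 2) before the testes were taken. No vehicle injection is described for the untreated rats. Each array is called a biological replicate in the labels and is read here as 1 animal, and the 7 arrays limit the precision. In RNA of a whole testis, fewer Sertoli cells and less RNA per Sertoli cell cannot be told apart.

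Hybridization took 3 days. Day 1 held the first untreated and the first 20 h array, day 2 the second untreated array alone, under another staining protocol, and day 3 the remaining 4: the third untreated array, the pair from 8 h and the second from 20 h. An array's number within its group is its replicate number. The instrument file of untreated replicate 2 gives mouse as its sample type, where the other 6 give rat; it was kept, the fold changes of members against untreated testis are also given without it, and 0 members passed the test without it. The median signal was lower on day 3 (52.9 to 57.1) than on days 1 and 2 (63.2 to 72.0). The actin signal near the 3' end exceeded that near the 5' end by 1.191 to 1.422 (log2) on day 3 and by 0.733 to 0.985 on days 1 and 2, a measure that moves with RNA integrity and labelling. Beside the members, 30 further Sertoli genes above the filter were read, among them Cldn11, Cst12 and the dim Amh. No separate measure of the Sertoli cell content was made.

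Of the 9 probe sets, 0 passed the test in the 8 h comparison, 0 in the 20 h comparison and 0 in the direct comparison of the times (limma, adjusted p under 0.05), against a background of 0% of the 20857 probe sets tested in each of the 3 comparisons. At an unadjusted p under 0.05 there were 0 of 9 in each comparison, where 5.22% of all probe sets were called at 8 h. The share was 3.11% for the 20 h comparison and 1.92% for the times against each other. An F test over the 3 groups called 0 of 9 as well, with 0% of all probe sets called at an adjusted and 3.02% at an unadjusted p under 0.05. The adjusted p of the 9 probe sets ran from 0.836 to 0.945 at 8 h and was 0.999 for each at 20 h. What the arrays show of these genes is therefore given as levels, intervals and their spread over animals.

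**Figure D1:**
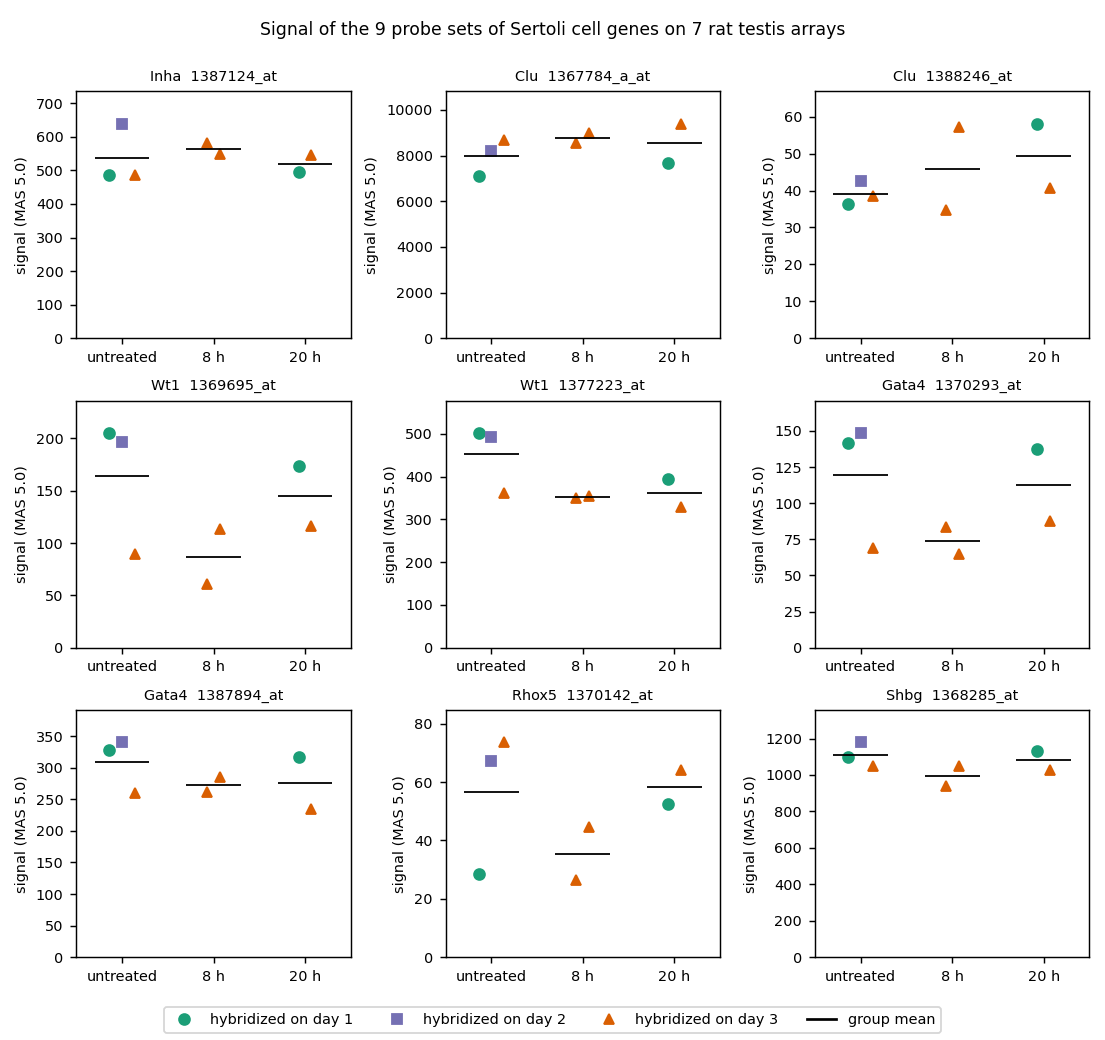
Signal of each of the 9 probe sets (linear scale, from 0) on the 7 arrays, grouped by treatment; each point is 1 array, its colour and shape give the hybridization day, and the bar is the group mean. For Wt1 and Gata4 the 4 arrays of day 3 lie below the 3 arrays of the other days in all groups. Inha, Clu (probe set 1367784_a_at) and Shbg stay within 1.32-fold, 1.32-fold and 1.26-fold from the lowest to the highest array. Within that range Shbg is also lower, and that Clu probe set higher, on all 4 arrays of day 3.

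Inha encodes the alpha subunit of inhibin, the Sertoli hormone that lowers the release of follicle-stimulating hormone. Its transcription is a known target of the cAMP pathway and of Gata4, a zinc-finger factor that is itself 1 of the members. The 250 bases before its start are therefore shown, at chr9:84442859-84443108 of GRCr8, plus strand, from the RefSeq promoter table, with capitals for the GATA motif AGATAA and for the core of the cAMP response element TGACG, which lies here on the other strand and reads CGTCA.

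Inha: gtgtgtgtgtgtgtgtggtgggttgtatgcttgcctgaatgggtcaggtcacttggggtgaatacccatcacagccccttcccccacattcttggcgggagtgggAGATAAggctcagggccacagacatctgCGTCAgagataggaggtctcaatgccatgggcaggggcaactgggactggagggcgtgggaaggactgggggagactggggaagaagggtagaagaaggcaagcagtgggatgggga

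The GATA motif spans bases 145 to 140 before the start and the core bases 117 to 113. On either strand, AGATAA occurs in 8.32% and TGACG in 15.4% of the 33469 promoter windows cut to the same 250 bases, so a match is a description of these letters and no evidence of binding. The full element TGACGTCA and the other GATA form searched, TGATAA, do not occur in this window.

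The Inha signal was 486.8, 639.1 and 484.9 in the untreated testes, 580.0 and 549.3 at 8 h, and 495.1 and 545.1 at 20 h. The highest value belonged to untreated replicate 2, and all 4 cadmium arrays lay inside the untreated range. The log2 fold change was 0.08 ± 0.17 (SE) at 8 h, with a 95% confidence interval from -0.30 to 0.46, and -0.03 ± 0.17 at 20 h, from -0.41 to 0.34. With the hybridization day as a block, in which untreated replicate 2 adds nothing, these were 0.18 ± 0.15 and 0.09 ± 0.13. Without untreated replicate 2, the highest array, they were 0.21 and 0.09. The sign at 20 h thus turned, but there the block and leaving out that array give the same estimate and are not separate results. The intervals without the block allow a fall to 0.815-fold and a rise to 1.37-fold at 8 h, and 0.752-fold to 1.27-fold at 20 h. Both 20 h arrays lay below both 8 h arrays, a position that 13.2% of all probe sets shared, and the difference of -0.12 ± 0.18 was smaller than its error.

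The partners of Inha were taken as a list of 21 inhibin and activin subunits, their receptors and their signalling and binding proteins, 17 of them above the filter. At 8 h 4 of the 17 had a higher and 13 a lower mean. Their median log2 fold change was -0.10, where that of all probe sets was -0.08; 0 passed in either direction (limma, adjusted p). At 20 h 7 were higher and 10 lower, with a median of -0.14 beside -0.05 for all probe sets, and again 0 passed. Inhbb, the beta subunit with which Sertoli cells make inhibin B, gave 198.4, 225.5 and 252.9 in untreated testis, 211.3 and 226.2 at 8 h, and 244.7 and 166.5 at 20 h. Its 8 h arrays lay inside the untreated range, and its 20 h arrays straddled the lower end of that range. Inhba, the subunit of activin A, was dim, between 5.3 and 56.9 on all 7 arrays. With an unadjusted p under 0.05 stood 2 genes of the list at 8 h, Acvr1, an activin and BMP receptor (log2 fold change -0.89 ± 0.37), and Furin, a protease that matures hormone precursors (-0.65 ± 0.25). Both were singled out with their values in view, and both had an adjusted p of 0.836 (limma). On all 4 day 3 arrays both were lower than on the other 3 arrays, and with the day as a block their values were -0.45 and -0.39.

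Clu encodes clusterin, an extracellular chaperone that Sertoli cells secrete in quantity. Probe set 1367784_a_at gave 7114.6, 8177.9 and 8672.8 in untreated testis, 8565.1 and 8984.0 at 8 h, and 7691.1 and 9396.8 at 20 h. The lowest values were the 2 arrays of day 1 and the highest the 20 h array of day 3, and each cadmium group overlapped the untreated range. The log2 fold change was 0.14 ± 0.15 at 8 h (interval -0.19 to 0.47) and 0.09 ± 0.15 at 20 h (-0.23 to 0.42), or 0.16 and 0.11 without untreated replicate 2.

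Within a day Clu was steadier. On day 3 the 8 h arrays differed from untreated replicate 3 by -0.02 and 0.05 on the log2 scale and 20 h replicate 2 by 0.12, and on day 1 the 20 h array differed from untreated replicate 1 by 0.11. With the day as a block the fold changes were 0.02 ± 0.07 at 8 h and 0.11 ± 0.07 at 20 h, with intervals from -0.15 to 0.18 and from -0.03 to 0.26, the narrowest of any member at 8 h. The direction depends on the scaling of the arrays, since quantile normalization gave -0.14 at 8 h and -0.04 at 20 h. The second Clu probe set, 1388246_at, was dim, with 34.6 to 58.1 on the 7 arrays and above the 40th percentile of its array on 3 of them. Its intervals were wide, -0.57 to 0.86 at 8 h and -0.47 to 0.95 at 20 h, around 0.15 and 0.24 (0.19 and 0.28 without untreated replicate 2), and across the 7 arrays it did not follow the first probe set (Pearson r = 0.06, a description).

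Shbg encodes the androgen-binding protein that Sertoli cells release into the tubule. The 250 bases before the start that the RefSeq promoter table uses lie on the minus strand at chr10:54834902-54835151 of GRCr8, inside the span of the gene (54831716 to 54849162), so other starts exist. They are shown because Gata4 and androgen action are both described here. Capitals mark the GATA motif AGATAA, at bases 214 to 209 before the start, and the androgen element arm TGTTCT, at bases 191 to 186.

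Shbg: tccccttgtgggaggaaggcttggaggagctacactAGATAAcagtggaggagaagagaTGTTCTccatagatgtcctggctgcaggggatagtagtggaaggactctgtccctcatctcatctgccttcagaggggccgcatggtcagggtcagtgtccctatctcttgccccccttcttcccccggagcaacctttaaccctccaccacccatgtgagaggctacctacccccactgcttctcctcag

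TGTTCT occurs on either strand in 14.1% of all windows of this length, and neither match is a shown site. The Shbg signal was 1096.8, 1178.6 and 1051.9 in untreated testis, 937.0 and 1049.9 at 8 h, and 1130.4 and 1029.2 at 20 h. Both 8 h arrays lay below the whole untreated range, the second of them barely. The log2 fold change was -0.16 ± 0.14 at 8 h (interval -0.46 to 0.15) and -0.04 ± 0.14 at 20 h (-0.35 to 0.27), so at 8 h a fall to 0.725-fold and a rise to 1.11-fold both stay within the interval. With the day as a block these were -0.07 ± 0.13 and 0.01 ± 0.11, and without untreated replicate 2 they were -0.11 and 0.01.

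Of the 9 probe sets 2 had both 8 h arrays below all untreated arrays, Shbg and Wt1 1377223_at, and 15.4% of all probe sets did; above the untreated arrays there were 0 of 9, with 7.59% of all. At 20 h 0 of 9 lay wholly below, with 10.7% of all, and 0 of 9 wholly above, with 4.65% of all. Between the times 3 probe sets, of Wt1 (1369695_at), Gata4 (1370293_at) and Rhox5, were higher on both 20 h arrays than on both 8 h arrays, with 15.2% of all. Inha was the 1 member lower on both.

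Wt1 encodes the zinc-finger factor that maintains Sertoli identity in the adult testis, and it is read by 2 probe sets. Probe set 1369695_at gave 205.1, 196.6 and 89.4 in untreated testis, 60.5 and 113.2 at 8 h, and 173.9 and 116.0 at 20 h. Probe set 1377223_at gave 501.9, 492.1 and 361.9 in untreated testis, 350.9 and 354.5 at 8 h, and 395.6 and 328.4 at 20 h. In both, untreated replicates 1 and 2 and 20 h replicate 1 were the high arrays, and untreated replicate 3 was low with the cadmium arrays of its day.

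For Wt1 at 8 h the log2 fold change was -0.78 ± 0.37 on 1369695_at (interval -1.62 to 0.05) and -0.33 ± 0.19 on 1377223_at (-0.75 to 0.09), with an adjusted p of 0.836 for each (limma). With the day as a block these were -0.22 ± 0.31 and -0.09 ± 0.16. The same-day differences of 1369695_at had opposite signs, -0.47 for the first and 0.30 for the second 8 h array, and those of 1377223_at were -0.04 and -0.03. Without untreated replicate 3 the values at 8 h were -1.13 and -0.48, and without untreated replicate 2 they were -0.62 and -0.26. For 1369695_at leaving out 8 h replicate 1 gave -0.40 and leaving out 8 h replicate 2 gave -1.17. At 20 h 1377223_at had -0.30 ± 0.19 (interval -0.72 to 0.12), and its same-day differences were -0.33 for the first and -0.13 for the second 20 h array. For 1369695_at they were -0.22 and 0.33, beside a fold change of -0.11 ± 0.37 over all arrays. Without untreated replicate 2 the 20 h values were 0.05 on 1369695_at and -0.23 on 1377223_at.

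Gata4 encodes a factor that acts on hormone genes of Sertoli and Leydig cells. Probe set 1370293_at gave 141.7, 148.5 and 69.2 in untreated testis, 83.3 and 65.0 at 8 h, and 137.8 and 87.5 at 20 h. Probe set 1387894_at gave 328.1, 340.1 and 260.8 in untreated testis, 261.3 and 284.8 at 8 h, and 317.0 and 234.2 at 20 h. The array pattern was that of Wt1, with the same 3 high arrays. The 8 h log2 fold changes were -0.54 ± 0.33 and -0.17 ± 0.20, and with the day as a block -0.01 ± 0.26 and 0.09 ± 0.18. At 20 h they were -0.05 ± 0.33 and -0.17 ± 0.20, and with the block 0.12 ± 0.23 and -0.10 ± 0.16. Without untreated replicate 2 the values were -0.37 and -0.10 at 8 h and 0.12 and -0.10 at 20 h. The intervals with the block ran from -0.60 to 0.58 and from -0.31 to 0.48 at 8 h.

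**Figure D2:**
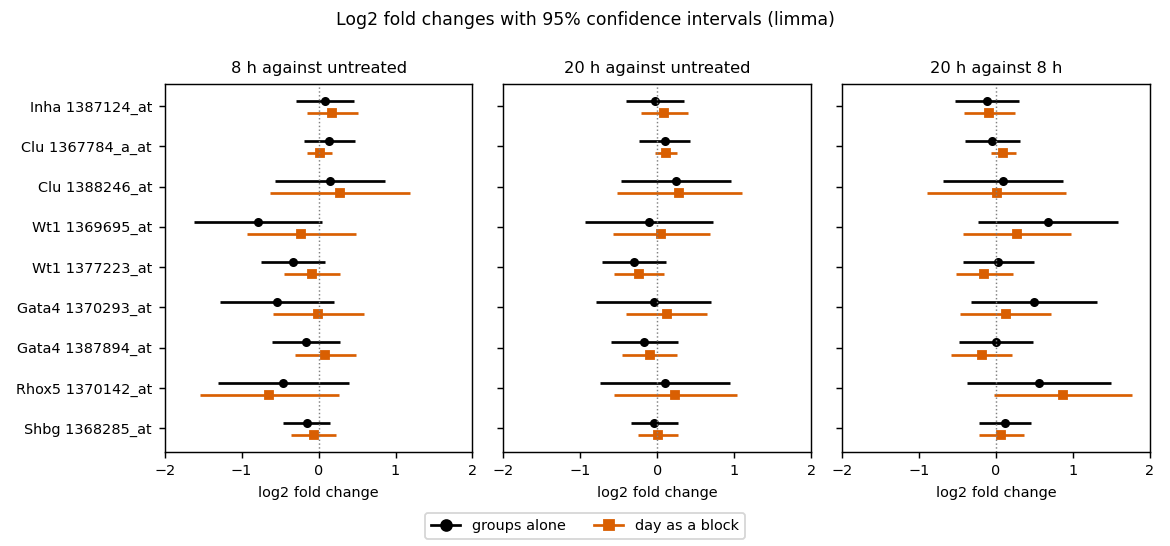
Log2 fold change (x axis) of each member probe set in the 3 comparisons, with its 95% confidence interval from limma; black circles are the fit on the groups alone and orange squares the fit with the hybridization day as a block. Every interval holds 0, and the 8 h values of Wt1 and Gata4 move towards 0 with the block, from -0.78 to -0.22 on Wt1 1369695_at and from -0.54 to -0.01 on Gata4 1370293_at.

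The split by day was measured directly after the values had been seen. Both probe sets of Wt1, both of Gata4 and that of Shbg were lower on all 4 arrays of day 3 than on all 3 arrays of days 1 and 2. That is 5 of 9 probe sets, where 18.7% of all probe sets showed it; 1 of 9, the brighter of Clu, was higher on all day 3 arrays, with 10.6% of all. Wt1 1369695_at had a mean of 94.8 ± 25.8 (SD, n = 4) on day 3 and 191.9 ± 16.1 (SD, n = 3) on the other days. Gata4 1370293_at had 76.2 ± 10.8 (SD, n = 4) and 142.7 ± 5.42 (SD, n = 3). On each gene the other probe set showed the smaller split, -0.39 on the log2 scale for Wt1 1377223_at against -0.94, and -0.32 for Gata4 1387894_at against -0.80.

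In the fit that holds the groups, day 3 lay below day 1 by -0.80 for Wt1 1369695_at (interval -1.43 to -0.17, adjusted p = 0.103, limma) and by -0.74 for Gata4 1370293_at (-1.26 to -0.21, adjusted p = 0.0794). For Wt1 1377223_at the day term was -0.36 (adjusted p = 0.153, limma) and for Gata4 1387894_at -0.36 (adjusted p = 0.176). The day term of Clu 1367784_a_at, 0.29 (interval 0.14 to 0.43), was the only one of the 9 to pass (adjusted p = 0.0271, limma), and 9.52% of all probe sets passed this test. An unadjusted p under 0.05 was reached by 5 of the 9 and by 26.9% of all probe sets.

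These splits depend in part on how arrays are scaled. The median of all probe sets was lower on day 3 by -0.11 with the deposited scaling, and higher by 0.01 after quantile normalization and by 0.03 after scaling to one 75th percentile. Relative to that, the lower day 3 values of Wt1 1369695_at (-0.75 and -0.80) and of Gata4 1370293_at (-0.58 and -0.65) and 1387894_at (-0.20 and -0.17) kept their separation under both scalings. Wt1 1377223_at kept it under quantile normalization (-0.31) and overlapped under the 75th percentile (-0.23). Shbg likewise kept it under the first (-0.19) and had 0.00 under the second, and the day difference of Clu turned from 0.22 to -0.15 under quantile normalization.

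**Figure D3:**
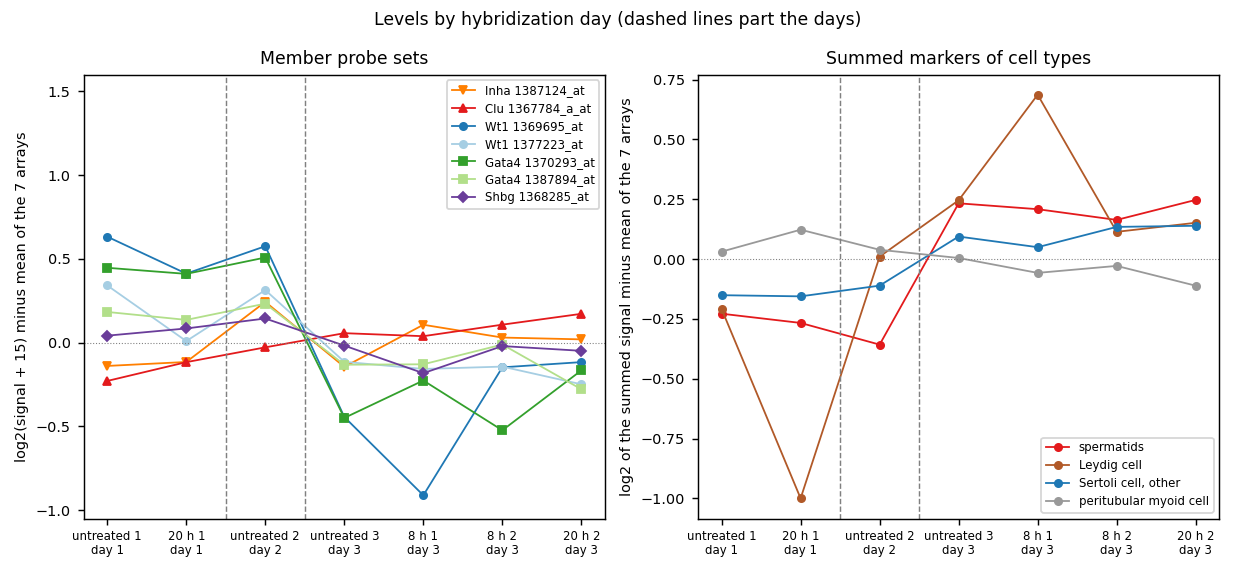
Left, log2(signal + 15) of the 7 brightest member probe sets on each array minus that probe set's mean over the 7 arrays; right, log2 of the summed signal of markers of 4 cell types minus its mean; arrays are ordered by hybridization day and dashed lines part the days. Wt1 and Gata4 drop and the spermatid sum rises from days 1 and 2 to day 3, in untreated and cadmium testes.

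Markers of some other cell types moved with the day as well. The summed signal of 9 spermatid markers lay between 142463.1 and 150960.9 on day 3 and between 99283.0 and 108584.7 otherwise. Of the 9, 8 were higher on every day 3 array, as were 10.6% of all probe sets. The sum of 10 Leydig cell genes ran from 9500.6 to 14131.9 on day 3 and from 4391.1 to 8843.0 otherwise. Of these genes 4 were higher and 1 was lower on all day 3 arrays. The sum of 7 peritubular myoid genes ran from 2377.4 to 2576.0 and from 2623.7 to 2795.9 in turn, with 1 gene lower on all day 3 arrays. For endothelial cells (315.6 to 706.3 beside 291.2 to 699.7), macrophages (1688.2 to 1809.2 beside 1577.8 to 1830.9) and spermatogonia the day 3 sums overlapped the others. The parts of these cell types, of the actin ratio and of the hybridization itself in the levels of Wt1 and Gata4 were not tested. Of the 30 further Sertoli genes, 9 were higher and 2, Cdh2 and Il1a, were lower on all day 3 arrays. Of all probe sets 10.6% were higher and 18.7% lower on all of them. The summed signal of the 30 ran from 34981.6 to 37219.8 on day 3 and from 30340.3 to 31296.7 otherwise. The list as a whole thus did not share the pattern of Wt1 and Gata4, and its sum split by day in the opposite direction.

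Rhox5 encodes a homeobox factor that androgen induces in Sertoli cells. It gave 28.5, 67.3 and 73.6 in untreated testis, 26.3 and 44.6 at 8 h, and 52.4 and 64.3 at 20 h. Untreated replicate 1 and 8 h replicate 1 were the low arrays, and both cadmium groups overlapped the untreated range. The signal was above the 40th percentile of its array on 5 of 7 arrays, and the low values stand near the 15 added before the log. The log2 fold change was -0.46 ± 0.38 at 8 h (interval -1.31 to 0.39) and 0.10 ± 0.38 at 20 h (-0.75 to 0.95), or -0.32 and 0.24 without untreated replicate 2. With the day as a block the value at 8 h was -0.64 ± 0.40, with same-day differences of -1.10 and -0.57. The difference between 20 h and 8 h was 0.56 ± 0.42 (interval -0.37 to 1.49), or 0.87 ± 0.40 with the block. The 20 h same-day differences were 0.63 on day 1 and -0.16 on day 3.

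Androgen action around Shbg and Rhox5 was read on a list of 14 genes, 10 of them above the filter. At 20 h the mean was higher for 0 of the 10 and lower for 10. The median of the fold changes was -0.17 (log2) beside -0.05 for all probe sets, and 0 passed (limma). At 8 h 2 were higher and 8 lower, with a median of -0.15 beside -0.08. Lhcgr, the Leydig receptor for luteinizing hormone, gave 347.0, 436.2 and 464.2 in untreated testis, 439.1 and 319.3 at 8 h, and 201.0 and 345.0 at 20 h. The lowest of these was the 20 h array of day 1, on which the Leydig sum was also lowest. At 20 h the log2 fold change of Lhcgr was -0.62 ± 0.25 (unadjusted p = 0.033, adjusted p = 0.999, limma), or -0.58 with the day as a block.

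Unc5c, a netrin receptor that Rhox5 is known to repress, was picked with its values in view. Its signal was 48.6, 74.9 and 82.4 in untreated testis, 37.0 and 31.2 at 8 h, and 31.6 and 37.7 at 20 h. All 4 cadmium arrays lay below the 3 untreated ones. Wholly below lay 15.4% of all probe sets at 8 h and 10.7% at 20 h, and the share at both times was not counted. The log2 fold change was -0.75 ± 0.31 at 8 h (unadjusted p = 0.039, adjusted p = 0.836, limma) and -0.73 ± 0.31 at 20 h (unadjusted p = 0.042, adjusted p = 0.999, limma). With the day as a block these were -0.88 and -0.67. The values share the untreated arrays and are dim, so the fold changes depend on the value added before the log.

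The pathway of the receptor for follicle-stimulating hormone was read on 30 genes of cAMP signalling, 28 above the filter. At 8 h 13 were higher and 15 lower, with a median of -0.01, and at 20 h 12 were higher and 16 lower, with a median of -0.07; 0 passed at either time (limma). Crem, a cAMP-responsive factor that is abundant in spermatids, gave 2033.7, 1999.1 and 2383.2 in untreated testis, 3049.2 and 2622.7 at 8 h, and 2106.1 and 2509.9 at 20 h. Both 8 h arrays exceeded the untreated range, as they did for 7.59% of all probe sets. The log2 fold change was 0.41 ± 0.15 (adjusted p = 0.836, limma), or 0.24 in the fit with the day block. All 4 day 3 arrays of Crem were above the other 3, as for 8 of the 9 spermatid markers. Prkar2b, a regulatory subunit of protein kinase A induced by this hormone, gave 173.5, 169.6 and 267.2 in untreated testis, 285.2 and 145.2 at 8 h, and 130.2 and 133.8 at 20 h. Both 20 h arrays lay below the untreated range, as they did for 10.7% of all probe sets (log2 fold change -0.54 ± 0.29, adjusted p = 0.999, limma). Pde4d, a phosphodiesterase that ends the cAMP signal, ran from 48.4 to 141.8 with its highest value in untreated testis.

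The further Sertoli genes showed no common direction. Of the 30, 17 were higher and 13 lower at 8 h, the median being 0.08 on the log2 scale (-0.08 for all probe sets), and 14 were higher and 16 lower at 20 h, with a median of -0.01 (-0.05 for all); 0 passed and 0 had an unadjusted p under 0.05 in either comparison (limma). Kitlg, the ligand that supports spermatogonia through the receptor Kit, gave 180.3, 213.2 and 182.8 in untreated testis, 138.4 and 156.7 at 8 h, and 91.4 and 178.5 at 20 h. All 4 cadmium arrays of Kitlg were below the untreated range, 20 h replicate 2 barely. Of all probe sets 15.4% lay wholly below that range at 8 h and 10.7% at 20 h, and the share at both times was not counted. The log2 fold changes of Kitlg were -0.35 ± 0.26 at 8 h and -0.53 ± 0.26 at 20 h, and with the day as a block -0.50 and -0.45. Cst12, a cystatin, gave 1541.8, 1533.3 and 1393.7 in untreated testis, 1413.1 and 1663.8 at 8 h, and 1759.6 and 1765.1 at 20 h. Its 20 h arrays were both above the untreated range, as they were for 4.65% of all probe sets, and the log2 fold change was 0.24 ± 0.13.

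The other Sertoli genes named in the rule overlapped the untreated range in at least 1 cadmium group. Cldn11, the claudin of the barrier, had 3024 ± 324 (SD, n = 3) in untreated testis, 3262 ± 547 (SD, n = 2) early and 3098 ± 641 (SD, n = 2) late after cadmium. Ctsl, a cathepsin that Sertoli cells secrete, had 2086 ± 278, 2302 ± 93.5 and 2367 ± 142 in the same groups. Amh, the hormone of the immature Sertoli cell, ran only from 43.6 to 68.1, Dmrt1, a factor of male cell fate, from 119.5 to 218.0, and Nr5a1, the steroidogenic factor, from 98.6 to 245.9. Gdnf, the growth factor for spermatogonial stem cells, was not above the filter.

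The iron cycle served by transferrin could be read without Tf itself. Of 13 genes, 10 were above the filter; 6 were higher and 4 lower at 8 h (median 0.06), 3 higher and 7 lower at 20 h (median -0.14), and 0 passed (limma). Tfrc, the transferrin receptor, gave 910.8, 1015.0 and 715.6 in untreated testis, 879.8 and 902.5 at 8 h, and 865.0 and 783.8 at 20 h, so that all cadmium arrays lay inside the untreated range. Clu is also made in the epididymis and Clu and Tf in the liver, so markers of these sources were read too. Of 10 epididymis and rete genes 3 were above the filter, Cst8, Aqp1 and Pax8, while Crisp1, Adam7 and Spag11b were not. Cst8, a cystatin made in the epididymis and also in germ cells, gave 4069.4, 4148.3 and 4392.8 in untreated testis, 4586.4 and 5028.1 at 8 h, and 4235.0 and 5327.0 at 20 h. It was higher on all day 3 arrays, as Clu 1367784_a_at was, and its part in the level of Clu was not tested. Aqp1, a water channel, was lower on all 4 cadmium arrays (83.3 to 92.5) than on the untreated ones (119.8 to 136.8). Of all probe sets 15.4% lay wholly below at 8 h and 10.7% at 20 h, and the share at both times was not counted. For Aqp1 the unadjusted p was 0.038 at 8 h and 0.031 at 20 h, and the adjusted p 0.836 and 0.999 (limma). Neither Aqp1 nor Pax8 was among the genes fixed in advance to be named, and both are given with their values in view. Pax8, a factor of the rete and excurrent ducts, was dim, from 12.0 to 61.2. It was higher on both 20 h arrays than on the untreated ones (unadjusted p = 0.025, adjusted p = 0.999, limma), as were 4.65% of all probe sets. The plasma gene Alb reached 80.5 at most. The sum of 6 plasma and blood genes was 1348.2 to 2258.1 in untreated testis and highest, 3171.8, on 20 h replicate 1, where Hbb alone, a globin of red cells, gave 2954.0.

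**Figure D4:**
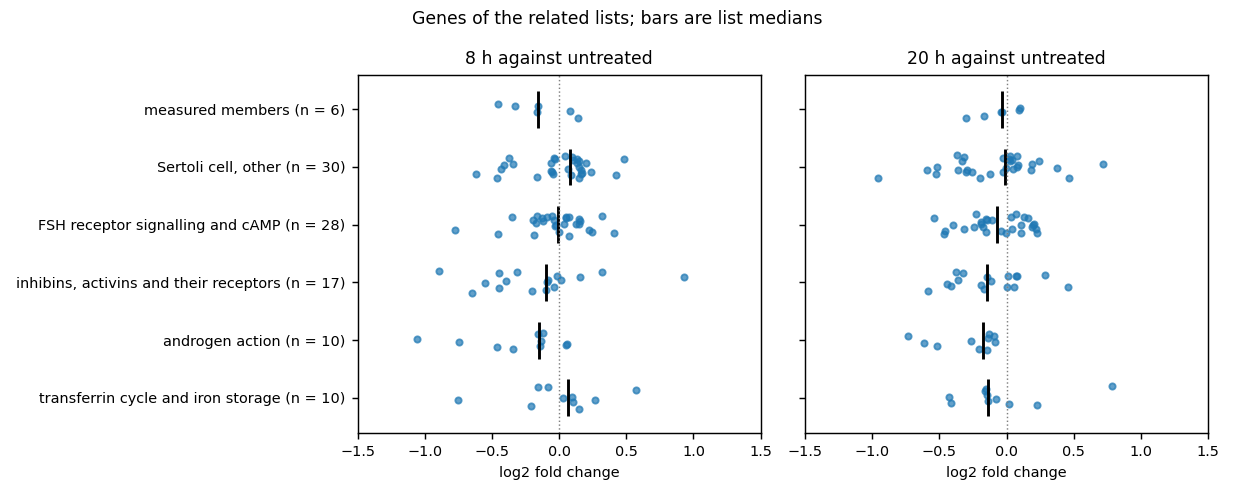
Log2 fold change (x axis) of each gene of 6 lists at 8 h and at 20 h against untreated testis; each point is 1 gene by its brightest probe set, the vertical bar is the list median and n the number of genes above the filter. The medians lie between -0.16 and 0.08 at 8 h and between -0.17 and -0.01 at 20 h, and none of the genes passed the test.

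The members whose levels ranged most over the 7 arrays were Rhox5, Wt1 and Gata4, with 1.10, 0.59 and 0.51 on the log2 scale for the brightest probe set. For each, the 3 genes of 11551 with the most similar pattern over the 7 arrays were sought by Pearson r, as a description in which arrays share days and scaling. For Wt1 these were Ptprv (r = 0.99), Zbtb24 (0.98) and Ylpm1 (0.98). Ptprv, a receptor-type tyrosine phosphatase, gave 508.6, 519.3 and 363.0 in untreated testis, 368.6 and 368.9 at 8 h, and 400.4 and 340.4 at 20 h, so it had the same 3 high arrays. For Gata4 they were Hmmr (0.99), Nckap5l (0.99) and Inhbe (0.98), an activin subunit gene of the list above, which ran from 24.2 to 40.5 on day 3 and from 63.7 to 73.3 otherwise. For Rhox5 they were Plppr3 (0.97), Bscl2 (0.97) and Gpi (0.96).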

How the data were processed

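For each probe set of the Affymetrix Rat230_2 array the authors deposited a linear signal intensity, computed with MAS 5.0 according to the design text (GeneSpring 7.2 is named there too); after trimming 2% at either end, the mean was 250.1 on all 7 arrays. Instrument files hold other information per the file headers (settings, no measurements) and gave the hybridization day. The 9 members and all lists were chosen with earlier results of these data known. No genome build is given for the probe sets; gene and promoter positions are those of the RefSeq tables for GRCr8, whose windows held 5 of the 9 members.

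Values were analysed as log2(signal + 15); fold changes on this scale understate those of dim genes. Probe sets above the 40th percentile of their array on at least 2 arrays were kept (20857 of 31042, 57 controls left out), which kept all 9 member probe sets. One limma model (version 3.58.1, R 4.3.3; moderated by eBayes with trend, 4 residual degrees of freedom) held all 3 groups, with Benjamini-Hochberg adjustment over all probe sets kept; the script was tested on simulated data. The day block leaves 2 residual degrees of freedom, and untreated replicate 2, alone on its day, then adds nothing to the contrasts. The fold changes at 20 h against untreated are therefore the same with the block as without that array, and are not separate results. For a gene in a list, its brightest probe set stood. By a fixed rule were named all members, a set of related genes, and the 2 largest changes per list among genes that passed (there were 0). The 3 most similar genes of the 3 most variable members were named by it too. Outside this rule Acvr1, Furin, Unc5c, Cdh2, Il1a, Cst8, Aqp1, Pax8 and Hbb were given values or singled out with their values in view. The replicate numbers were not taken to pair arrays: replicate 1 minus replicate 2 correlated between groups by -0.001, 0.094 and 0.14. Motifs searched on both strands were AGATAA and, for GATA factors too, TGATAA; for the cAMP response element TGACGTCA with its core TGACG (which it contains); for Sox factors AACAAAG or the shorter AACAAT; as E-box CACGTG and the wider CANNTG (which includes it); for Wt1 GCGTGGGNG; and as androgen element arm TGTTCT. The 17 alternatives are given in the closing section.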

Additional observations from a re-analysis of the deposited data

Results flagged for a closer look

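Tf encodes transferrin, the iron carrier that Sertoli cells make for the germ cells. A probe set that the annotation assigns to Tf and Srprb together, 1370228_at, was outside the set of probe sets described above and was higher in cadmium testes. It gave 3309.6, 3362.8 and 3182.2 in untreated testis, 3840.1 and 4120.2 at 8 h, and 3857.8 and 4199.8 at 20 h, so all 4 cadmium arrays exceeded all 3 untreated ones. The log2 fold change was 0.28 ± 0.12 (SE) at 8 h and 0.29 ± 0.12 at 20 h, and with the day as a block 0.28 and 0.31. Without the block the unadjusted p was 0.0498 at 8 h and 0.0395 at 20 h, and the adjusted p 0.836 and 0.999 (limma). Against the untreated range, 7.59% of all probe sets lay wholly above at 8 h and 4.65% at 20 h, and the share at both times was not counted. The signal cannot be given to either gene from the annotation, and the second such probe set, 1391323_at, was dim, with 5.0 to 39.3 on the 7 arrays.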

How the results depend on the processing

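Over 17 alternatives the count of member probe sets that passed limma's adjusted p of 0.05 stayed at 0 in each comparison and in the F test, and among 453 fold changes of members 0 came to pass. Of the 453, 407 kept their sign and 46 changed it, each with an interval across 0 to begin with; the cause was not tested. Over all probe sets, with 0 called, the day 3 arrays alone called 8 at 8 h and 2 at 20 h with 1 residual degree of freedom; leaving out 1 array gave 0 to 1 at 8 h (1 without 8 h replicate 2), 0 to 8 at 20 h (8 without 20 h replicate 2) and 0 to 1 between the times (1 without either cadmium replicate 2), a lone array being assumed to vary like the other groups. The replicate numbers do not pair the arrays here. With them as a block 0 members and 0 probe sets in all passed, while 3759 in place of 1088 probe sets had an unadjusted p under 0.05 at 8 h. Replicate 3 exists only among the untreated arrays, so this block takes untreated replicate 3 out of the contrasts. The 8 h comparison then sets arrays of day 3 against arrays of days 1 and 2, so treatment and day cannot be told apart. Leaving that array out without a block gave 3342.

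Signs turned as follows (log2). At 20 h against untreated: Inha to 0.024 under the 75th percentile scaling, 0.094 with the day block and 0.16 on day 3 alone; Wt1 1369695_at to 0.053 with the day block and 0.33 on day 3; Gata4 1370293_at to 0.057 under quantile normalization, 0.0090 under the 75th percentile, 0.12 with the day block and 0.28 on day 3; Rhox5 to -0.16 on day 3; Shbg to 0.021 under the 75th percentile and 0.0060 with the day block; Clu 1367784_a_at to -0.041 under quantile normalization. At 8 h against untreated: that Clu probe set to -0.14 under quantile normalization, Gata4 1370293_at to 0.075 on day 3, and Gata4 1387894_at to 0.086 with the day block and 0.061 on day 3. Between the times: Clu 1367784_a_at to 0.10 under quantile normalization, with the day block and on day 3, Clu 1388246_at to -0.10 on day 3, Wt1 1377223_at to -0.016 under the 75th percentile, -0.15 with the day block and -0.10 on day 3, and Gata4 1387894_at to 0.00054 with 50 added before the log. Leaving out 1 array gave, at 20 h, Inha -0.10 to 0.094, Clu 1367784_a_at -0.050 to 0.24, Wt1 1369695_at -0.46 to 0.16, Gata4 1370293_at -0.36 to 0.24, Gata4 1387894_at -0.37 to 0.041, Rhox5 -0.22 to 0.29 and Shbg -0.10 to 0.029. It gave Clu 1388246_at -0.12 to 0.42 at 8 h, and between the times Clu 1367784_a_at -0.19 to 0.10, Clu 1388246_at -0.18 to 0.36, Wt1 1377223_at -0.10 to 0.16 and Gata4 1387894_at -0.21 to 0.21. With the 60th percentile filter Rhox5 and Clu 1388246_at had no value, being too dim.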
